A study of Homo sapiens with 16 samples.

Results

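Nested genes lie wholly within the span of another gene, their host. In the table of RNA-seq read counts studied here, a gene is 1 row with a start, an end and a strand, and a nested row is one whose start and end both fall inside another row of larger span. Of the 15734 rows on chromosomes 1 to 6, 8 to 18, 20 and 21, outside the clustered protocadherin region of chromosome 5, 557 were nested (3.54%), out of 19333 rows in the whole table. The host of a nested row was taken as the containing row with the smallest span, which lay on the same strand for 191 nested rows and on the opposite strand for 366. Each of these 557 rows was listed at 0 in each of the 4 libraries, so that no level and no change after Top1 depletion could be given for any nested row.

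The cell line was HEK293, derived from human embryonic kidney, and its total RNA was sequenced after removal of ribosomal RNA. Scramble cells (2 libraries) received a negative control RNA, and Top1 KD cells (2 libraries) received 10 nM of siRNA against Top1, the nuclear topoisomerase that relaxes supercoils ahead of and behind RNA polymerase. Both were harvested 5 days after the first transfection, and neither the labels nor the methods say which of the Top1 siRNAs these libraries received. The series' design text says that samples were of different passages, and the other assays of the series were not analysed here.

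Genes inside other genes are most often found in the introns of a longer host. A nested gene on the strand of its host is crossed by each polymerase that completes the host transcript, so unspliced host RNA carries its sequence. A nested gene on the opposite strand is transcribed towards the polymerases of its host, and only a protocol and a count that keep the strand can separate the RNA of the pair. The comparison of a nested gene with its host therefore asks whether both respond alike when Top1 is depleted.

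Rows carry transcript identifiers without gene symbols, and 0 of them were found in the reference name tables. Nested rows are therefore given by position, in hg19 as named in the submitters' processing notes. Neither the TOP1 transcript nor markers of HEK293 cells could be found by name to check the labels here. The study's methods report a check of the knockdown by Western blot and by RNA-seq. A library held from 14681774 to 18366226 reads on rows, and between 14029 and 14398 rows had at least 1 read in a library.

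Nested rows were short and were spread along their hosts. Their span ran from 0.059 kb to 833 kb with a median of 2.62 kb, and 306 of the 557 (54.9%) spanned less than 3 kb. The median span was 3.22 kb with a host on the same strand and 2.46 kb with a host on the opposite strand. A nested row took up a median of 7.28% of a same-strand host and 4.09% of an opposite-strand host. The middle of the nested row lay at a median of 54.9% of the host's span from the host's start on the same strand and 48.9% on the opposite strand. Nested rows covered 50% or more of the span of 48 of the 458 hosts, and the median share covered was 5.88%.

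**Figure D1:**
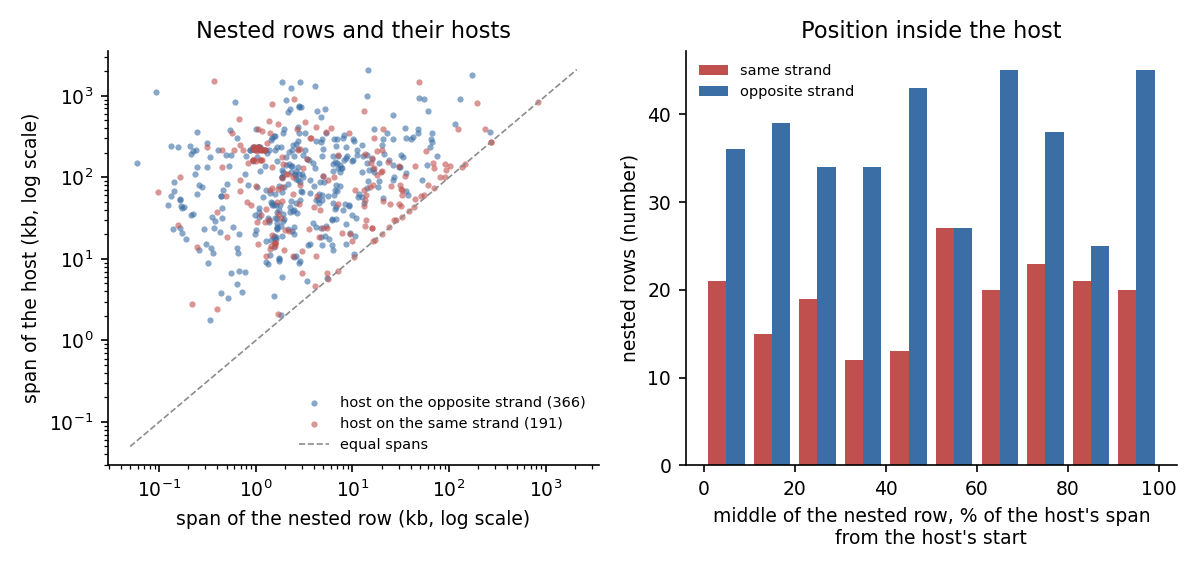
Left, span of each nested row against that of its host, both in kb on log scales, with the dashed line at equal spans. Right, number of nested rows by where their middle lies in the host, in bins of 10% of the host's span. The 191 same-strand and 366 opposite-strand rows both occur along the whole host, and same-strand rows include those that nearly fill their host.

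Both strand classes were found on each of the 19 chromosomes. Between 2.30% and 4.50% of the rows of a chromosome were nested, except on chromosome 21, where 27 of 229 were (11.8%). A single host there, at 45917775 to 46131495 on the minus strand, held 17 nested rows, 8 on its own strand and 9 on the other, which was the most for any host. Of the 458 hosts, 407 held 1 nested row, 40 held 2 and 11 held 3 or more. In all, 33 nested rows lay in more than 1 row, and 4 of these had containing rows on both strands. Of the same-strand nested rows 32 shared a start or an end with the host, and 0 of the opposite-strand rows did. Of the nested rows 15 held another row within their own span.

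The normalized count of a row is its number of reads divided by the size factor of the library. For the nested rows it summed to 0 in scramble replicate 1, 0 in scramble replicate 2, 0 in Top1 KD replicate 1 and 0 in Top1 KD replicate 2, over the 191 same-strand rows and likewise over the 366 opposite-strand rows. With 0 in every nested row, neither the groups nor the libraries could be compared on these rows. A count of 0 would allow up to 3 reads in a row, or 2.64 to 3.25 normalized counts depending on the library, if counting error alone were at work. Whether these transcripts are present in the cells is not shown by the zeros. How the zeros went with the span and overlap of a row is described next, and their cause was not tested.

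Rows that were not nested were listed at 0 much less often. Of the 15177 other rows on the same chromosomes, 2447 were at 0 in all 4 libraries (16.1%). Short rows are often silent or poorly covered, so the rows were also compared by span. Among rows that overlapped no other row, 335 of 431 under 1 kb were at 0 (77.7%), 563 of 1045 from 1 to 3 kb (53.9%), 611 of 2363 from 3 to 10 kb (25.9%), 499 of 3405 from 10 to 30 kb (14.7%) and 261 of 5911 over 30 kb (4.42%). All 61 nested rows over 30 kb were at 0, as were all 76 from 10 to 30 kb. These shares are descriptions over rows, which are not replicates, and were not tested.

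**Figure D2:**
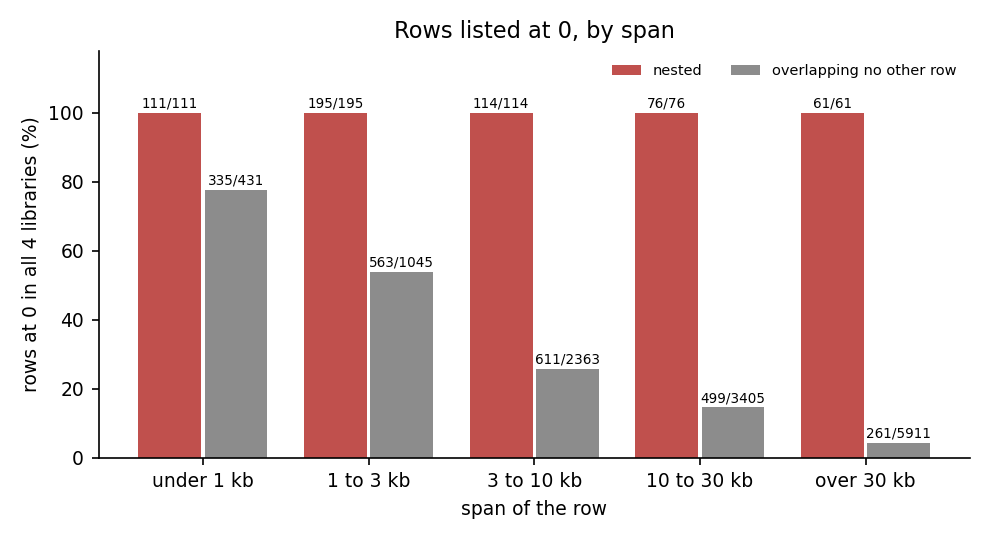
Percent of rows at 0 in all 4 libraries, by span, for nested rows (red) and for rows that overlap no other row (grey), with the number at 0 over the number of rows above each bar. Nested rows stand at 100% in each span class, whereas the other rows fall from 77.7% under 1 kb to 4.42% over 30 kb.

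The share at 0 rose with the part of a row that other rows covered, once that part passed 10%. It was 17.2% of the 13155 rows without overlap and 2.73% of the 1319 rows covered by up to 10%. It was then 9.07% at 10 to 50%, 19.6% at 50 to 90%, and 57 of 114 rows at 90 to under 100%. A set of 21 rows was covered completely, but by several rows together or by a row of identical span, so that none of them was nested. Of these 19 were at 0 (90.5%), and the highest value of the other 2 in any library was 15.5 normalized counts. By strand, 14 of 14 were at 0 with same-strand cover alone, 0 of 1 with opposite-strand cover alone and 5 of 6 with both. Nested rows, covered completely by a single row, were at 0 in 557 of 557 cases.

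**Figure D3:**
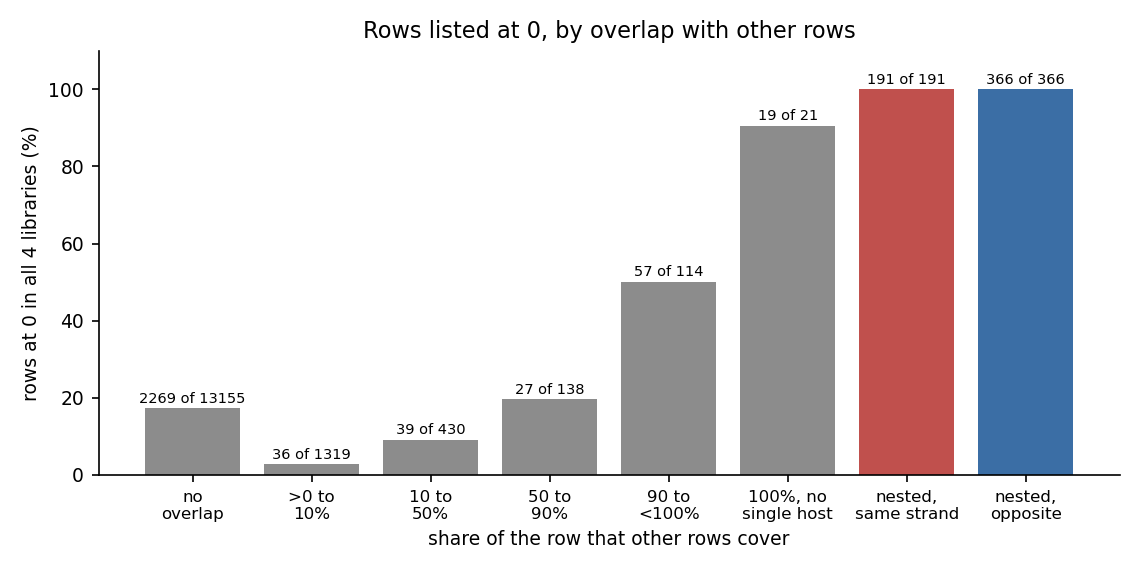
Percent of rows at 0 in all 4 libraries, by the share of the row's span that other rows cover, with counts above the bars. Grey bars are rows that are not nested, and the red and blue bars are the 191 same-strand and 366 opposite-strand nested rows, both at 100%.

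Nested rows did not differ by strand in this respect. Among them, 184 were covered by same-strand rows alone, 361 by opposite-strand rows alone and 12 by both, and each of these was at 0. Partly covered rows had reads in both strand classes as well. Of rows covered by 10 to 50%, 11 of 77 were at 0 with overlap on the same strand alone (14.3%) and 26 of 332 with overlap on the opposite strand alone (7.83%). At 50 to 90% the counts were 5 of 50 rows and 20 of 72 rows. At 90 to under 100% they were 47 of 91 rows and 2 of 8 rows, the latter too few to describe the opposite strand.

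Rows that missed nesting by a few bases show the limit of the rule. With 1 to 10 bases left outside every other row, 17 of 19 rows were at 0, and the highest value in any library was 10.6 normalized counts. With 1 to 50 bases uncovered, 34 of 45 overlapping rows were at 0 (75.6%) although their median span was 10766 bases. Of these 45 rows, 40 were overlapped on the same strand alone (31 at 0) and 2 on the opposite strand alone (1 at 0). The approach to full cover was thus seen almost only for same-strand overlap. The median of the mean normalized count was 0 at 1 to 50 uncovered bases and 0.44 at over 50 to 200. It was 2.24 up to 1000, 110 up to 5000 and 258 up to 20000. Longer uncovered stretches belonged to longer rows, and the 2 were not separated. The nested rows stand at the end of this series, with 0 uncovered bases and 0 reads.

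**Figure D4:**
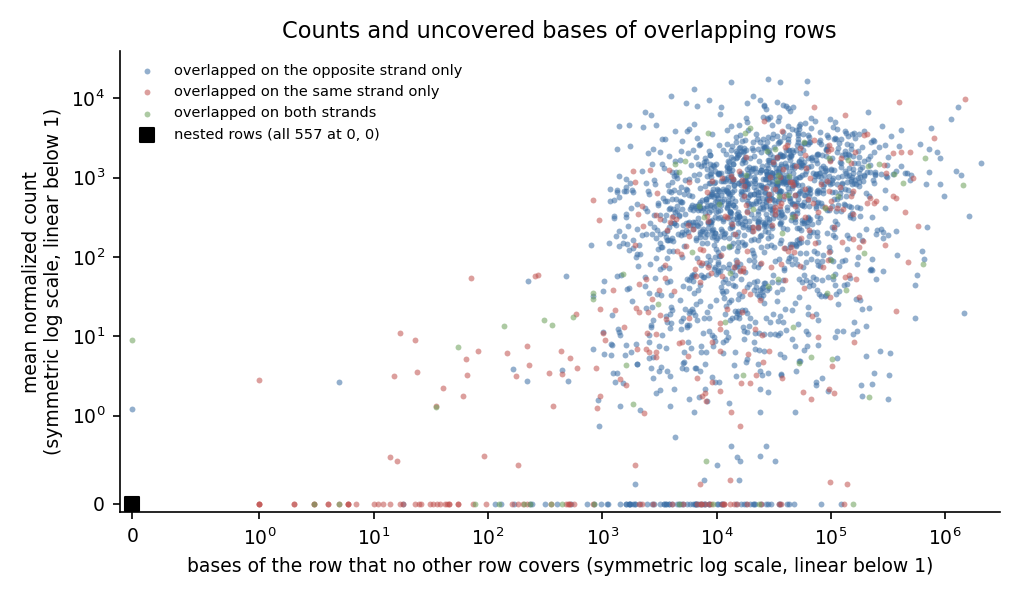
Mean normalized count over the 4 libraries against the number of bases that no other row covers, for rows that overlap another row and are not nested, by the strand of the overlap, on symmetric log scales. The black square stands for the 557 nested rows, and of the rows with 1 to 50 uncovered bases, 34 of 45 are at 0 like them. Of these 45 rows, 40 are overlapped on the same strand alone.

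The submitters' processing notes name HTSeq. Whether rows were counted over exons or whole spans, in which mode and with which strand setting is not given in the sources used here. The overlap moved with the zeros as given above, and the part of the counting in them was not tested. Whatever the source of the zeros, nested rows cannot be read from this table as genes that are not expressed in HEK293 cells.

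Many nested rows lay inside hosts with ample reads. The host passed the filter (2 or more libraries with at least 10 normalized counts) for 407 of the 557 nested rows, 111 on the same strand and 296 on the opposite strand. It had a mean of at least 100 normalized counts for 325 nested rows and of at least 1000 for 142. Only 76 nested rows had a host that was itself at 0, 45 on the same strand and 31 on the opposite strand. Of the 458 hosts 13 were nested themselves and so at 0 as members. Among the other 445, the hosts largely filled by their nested rows were more often at 0. This held for 15 of 42 hosts covered by 50% or more (35.7%), for 13 of 121 covered by 10 to 50% (10.7%) and for 14 of 282 covered by less (4.96%). These classes leave out cover by rows that are not nested. Such cover was complete for some hosts at 0, as at 10490159 to 10512210 of chromosome 1. Reads that may have fallen on the nested part of a host could not be recovered from the table.

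The change of a nested row against its host could not be computed, since a row at 0 in both groups has no fold change and 0 of the 557 passed the filter. What can be given is the change of the host in which each nested row lies. By limma, with a call at an adjusted p under 0.05 and at least 1.5-fold, 8.15% of the 13086 rows tested in the whole table were called, 3.88% higher and 4.26% lower in Top1 KD cells. Of the nested rows, 19 lay in a host called higher, 5 on the same strand and 14 on the opposite strand. Another 18 lay in a host called lower, 5 and 13 by strand. In bulk RNA, fewer cells with a transcript and less of it per cell cannot be told apart. For 370 nested rows the host was tested and not called, and for 74 it had reads but was not tested.

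Counted by host, 102 hosts of same-strand nested rows were tested, and 5 were called higher and 5 lower. Of the 265 tested hosts of opposite-strand nested rows, 14 were called higher and 10 lower. The shares called were 9.80% and 9.06%, near the 8.15% of all rows, and some hosts hold nested rows of both classes. Under 80 kb, 7 of 46 hosts of same-strand rows (15.2%) and 9 of 127 of opposite-strand rows (7.09%) were called. At 80 kb or more it was 3 of 56 (5.36%) and 15 of 138 (10.9%). Among rows that are not nested and are the host of none, the shares were 7.54% and 9.02% in these 2 span classes. The median log2 change was 0.10 for hosts of same-strand rows and -0.01 for hosts of opposite-strand rows, beside 0.0025 for all rows tested. The value of 0.10 fell to 0.015 without scramble replicate 2. Hosts are long, and for those of at least 80 kb the median was 0.16 on the same strand and 0.09 on the opposite strand, beside 0.11 for rows of that span that are not nested and are the host of none. The number of calls, higher and lower, fell in both strand classes without either scramble replicate and without Top1 KD replicate 1. Without Top1 KD replicate 2 it fell only for hosts of opposite-strand rows called lower.

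**Figure D5:**
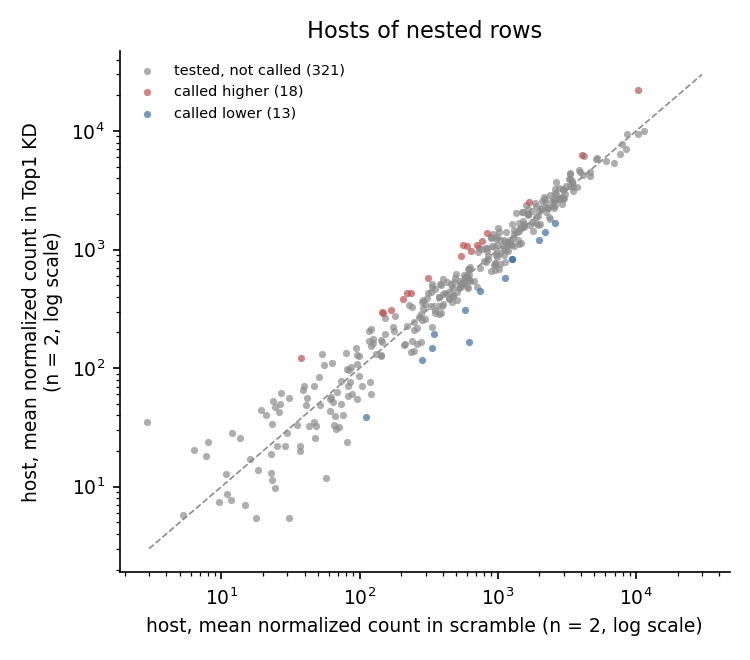
Mean normalized count of each tested host in scramble cells (x axis, n = 2) and in Top1 KD cells (y axis, n = 2), on log scales, with the dashed line at equality. Of the tested hosts 18 were called higher (red), 13 lower (blue) and 321 were not called (grey). The nested rows themselves are at 0 in both groups and are not drawn.

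Loci of called hosts show what is missing for the nested rows. These hosts were chosen after their values were seen, as the 2 largest rises and the 2 largest falls among called hosts that averaged 100 normalized counts or more and whose groups did not overlap. Called hosts with a lower mean included log2 changes of 1.69 and -1.50. The nested row at 205682497 to 205684153 of chromosome 1, 1.66 kb long on the plus strand, was listed at 0 throughout, within the last part of ENST00000367142 (205681947 to 205719404, minus strand). Its host was listed at 10062 and 10631 normalized counts in the scramble libraries and at 21741 and 22978 in the Top1 KD libraries. The host thus rose in both Top1 KD libraries, by 1.11 on the log2 scale (standard error 0.086, limma adjusted p = 3.72e-06), and had the highest mean count of the 458 hosts.

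The nested row at 129849611 to 129885162 of chromosome 9, 35.6 kb long on the minus strand, was at 0 inside ENST00000259351 (129677053 to 129985443, plus strand). That host was listed at 159 and 132 normalized counts in scramble cells and at 318 and 281 in Top1 KD cells. The groups did not overlap, and the host rose by 1.04 (standard error 0.27, limma adjusted p = 0.016), a call that was lost without either scramble replicate and without Top1 KD replicate 1. The nested row covered 11.5% of this host.

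The largest fall was that of a host with a nested row close to its end. The row at 87727144 to 87729753 of chromosome 16, 2.61 kb long on the minus strand, was at 0 inside ENST00000284262 (87636511 to 87731762, plus strand). The host was listed at 588 and 656 normalized counts in scramble cells and at 107 and 227 in Top1 KD cells. Both Top1 KD libraries lay below both scramble libraries, with a log2 change of -1.99 (standard error 0.29, limma adjusted p = 0.00047).

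A group of 4 nested rows lay on the minus strand inside ENST00000356157 (chromosome 18, 44526818 to 44627376, plus strand). Their starts were at 44542731, 44548658, 44554573 and 44558943, the first 3 had the same span of 1.88 kb, and all 4 were at 0. The host was listed at 352 and 212 normalized counts in scramble cells and at 133 and 99.8 in Top1 KD cells. Its log2 change was -1.24 (standard error 0.32, limma adjusted p = 0.016), and the call was lost without scramble replicate 1 and without either Top1 KD replicate. Whether these rows share sequence, which would leave their reads without a unique place, was not tested.

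The host on chromosome 21 with the most nested rows was not called. It was listed at 84.3 and 113.5 normalized counts in scramble cells and at 112.6 and 142 in Top1 KD cells. The groups overlapped, and the log2 change was 0.37 (standard error 0.36, limma adjusted p = 0.54). Its 17 nested rows covered 9.09% of its span and were at 0 in all 4 libraries.

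Nested rows were at 0 in every host, and so also on either strand of the hosts with the largest counts. The row at 116915890 to 116926718 of chromosome 1, 10.8 kb long on the minus strand, covered 34.4% of a plus-strand host listed at 11388 and 11556 normalized counts in scramble cells and at 9713 and 10371 in Top1 KD cells. On the same strand, the row at 59957215 to 59957583 of chromosome 3, 0.369 kb long, lay in a host of 1502 kb listed at 10150 and 10351 normalized counts in scramble cells and at 10151 and 8623 in Top1 KD cells. These hosts had the second and the third highest mean of all hosts, and neither was called.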

How the data were processed

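Per the labels, the 4 RNA-seq libraries were 2 of scramble and 2 of Top1 KD HEK293 cells. The authors trimmed the single-end reads (fastq-mcf), aligned them by TopHat2 (2.0.5 in the submitters' processing notes, which also name HTSeq, DESeq2 and hg19) and kept unique hits. The annotation release, the counting mode and the strand setting are not given in the sources used here. The signal the authors deposited is the number of reads over a DESeq2 size factor, with no correction for length. In each library 100% of values were whole multiples of 1 read (within 0.2%), so reads were recovered by rounding. The authors also deposited a log2 fold change with its standard error, a test statistic and a call per gene (a score without fixed range), and p-values, none of which were used. Each per-library column was matched to its sample.

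Containment and coverage were computed from start, end and strand, ends included, in Python 3.11.15 with pandas 2.3.3. Top1 KD was compared with scramble by limma 3.58.1 (R 4.3.3) on log2(normalized count + 1), a trend of the variance on the mean and Benjamini-Hochberg adjustment, over the 13086 rows where 2 or more libraries reached 10 normalized counts. edgeR 4.0.16 and DESeq2 1.42.0 on recovered reads were alternatives. On this scale changes of low counts are understated. The containment code and the limma fit were tested on simulated data. The members, thresholds and rules were chosen with earlier results of these data known. The planned tests of nested rows, and of their ratio to the host, could not be fitted, because 0 nested rows passed the filter, so hosts were described instead. The rule for naming nested rows (the 5 largest rises and falls per strand class, with at least 100 normalized counts) named none beyond the host with the most nested rows. With 2 libraries per group, p-values lean on a spread that limma estimates over all rows. No sequences are shown, since rows could not be matched to names.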

Additional observations from a re-analysis of the deposited data

How the results depend on the processing

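The 557 nested rows at 0 became 531 when neither end could be shared with a host, and 685 with every chromosome and the region left out added, a setting chosen after the data were seen. Under both, 0 nested rows had a read. The alternatives planned for calls, ratios, medians and correlations of nested rows gave no value and were not run, because no nested row had a read to test. They were applied to the hosts instead, which was decided after the data were seen. Scaling by the total of recovered reads gave 8 hosts of same-strand rows called higher in place of 5. Leaving out each replicate in turn gave 0 to 6 higher and 0 to 6 lower for hosts of same-strand rows, and 4 to 17 higher and 2 to 8 lower for hosts of opposite-strand rows. These fits assume that the lone library of a group varies like the others. With a replicate block the counts were 5 and 5, and 14 and 10, as without it. Deviations from the group means did not go together in same-numbered libraries (correlation -0.01). Whether the libraries were handled as pairs is not shown by this. The other filters, pseudocounts, count tests and choice of host kept each count within 1.5 times. The median change of hosts of opposite-strand rows, -0.01, was 0.01 with scaling by the total and 0.02 without Top1 KD replicate 2. That of hosts of same-strand rows, 0.10, was 0.12 with scaling by the total and 0.015 without scramble replicate 2. The changes of the 4 hosts given by identifier kept their sign under each of 12 alternatives. Fewer libraries leave fewer degrees of freedom by construction. The counts were not lower in each fit that left out a replicate, and the causes of their differences were not tested.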
